A study of Bos taurus with 4 samples.

Results

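Amino acid transporters are membrane proteins that carry amino acids and related small molecules into, out of and within cells. The transporters described here are the genes of the solute carrier (SLC) families 1, 3, 6, 7, 36, 38 and 43, taken by their gene name on the array. They were 54 gene names on 104 probes. One of the names covers a pair of genes in the current RefSeq table, which makes 55 genes of the 25151 on the array. They were measured in bovine intramuscular preadipocytes, precursors of the fat cells that lie within skeletal muscle. The study compared 4 groups. ATRA cultures were kept for 6 days in adipogenic medium with 1 µM all-trans retinoic acid, 9cRA cultures for 6 days in that medium with 1 µM 9-cis retinoic acid, day 6 control cultures for 6 days in the medium without a retinoid, and day 0 cultures were harvested at the start of adipogenic stimulation. The adipogenic medium held the fatty acids octanoate (5 mM) and acetic acid (10 mM), dexamethasone (0.25 µM, a glucocorticoid), insulin (50 ng/mL) and 10% fetal bovine serum, and was renewed every 2 days. The title of the series asks what vitamin A does to gene expression in these cells during adipogenesis. Since no cultures spent the 6 days in another medium, effects of the adipogenic medium and of culture time cannot be told apart. The labels do not say how many animals gave the cells.

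The families divide the work of amino acid transport. SLC1 holds the high-affinity glutamate transporters and the exchangers of alanine, serine, cysteine and glutamine. SLC3 proteins are single-pass heavy chains that pair with SLC7 light chains, and the pair of SLC3A2 with SLC7A5 exchanges glutamine for leucine and other large neutral amino acids. SLC6 uses the sodium and chloride gradients to carry neurotransmitters, creatine, taurine, betaine and glycine, so that several of its members move compounds made from amino acids. SLC36 and SLC38 carry small neutral amino acids with protons or sodium, at the cell surface and at the lysosome, and SLC43 holds facilitators of large neutral amino acids. Fat cells use imported amino acids for protein, as a carbon source for lipid and as a signal to the growth kinase mTORC1. Retinoic acids act through nuclear receptors, with ATRA known to bind the retinoic acid receptors, and 9cRA to bind both those and the retinoid X receptors. The compounds are geometric isomers, identical but for the arrangement around 1 double bond.

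Each group was measured on 3 arrays, which lay on 3 slides. Day 0 shared a slide with day 6 control array 1, day 6 control arrays 2 and 3 shared a slide with ATRA arrays 1 and 2, and ATRA array 3 shared a slide with the 3 9cRA arrays. Whether the 3 arrays of a group came from separate cultures is not in the labels, and the p-values therefore cover only variation among arrays, part or all of which may be technical. Values are log2 signals relative to the array's 75th percentile, a scale on which a probe is compared between groups and never with another probe. Between 64.8% and 74.0% of the spots of an array were well above background, the lowest share being that of day 6 control array 1, which also had 103 non-uniform spots (the other arrays had 0 to 2). Differences are log2 with the standard error (SE), the group named first minus the group it is set against, and a gene was called where limma's Benjamini-Hochberg adjusted p over the 17622 genes tested was under 0.05. Further probes of a gene were called in a separate limma fit of all probes that passed the background filter, with p adjusted over those probes. Where a result depends on the slide, its value in the fit with slide as a block is given, which for day 6 control against day 0, ATRA against day 6 control and ATRA against 9cRA is the difference within the slide that holds both groups. In bulk samples, fewer cells of a type and less RNA per cell cannot be told apart.

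The label preadipocyte was set against marker genes. Of 12 genes of preadipocytes and fibroblasts, 12 were well above background on all 3 arrays with ATRA and with 9cRA, and 11 in the day 6 control and at day 0, where CD34 was at background. The summed level of 7 adipocyte genes, in multiples of the array's 75th percentile, was 3.44 to 3.56 with ATRA and 3.71 to 4.67 with 9cRA, against 70.7 to 88.4 in the day 6 control, and day 0 had 4.29 to 4.43. FABP4, which binds fatty acids in fat cells, made up most of it, and ADIPOQ, the adiponectin gene, was not well above background in any group. Summed levels of 6 immune cell genes were 5.22 to 5.48 with ATRA and 4.86 to 5.56 with 9cRA, against 1.84 to 2.86 in the day 6 control, with day 0 at 2.41 to 2.78, and the T cell gene CD3E was not well above background in any group. Those of 6 endothelial genes were 0.668 to 0.775 with ATRA and 0.627 to 0.759 with 9cRA, against 0.172 to 0.251 in the day 6 control, with day 0 at 0.132 to 0.162, and PECAM1 was not well above background in any group. The 5 genes of neurons and glia summed to 0.676 to 0.887 with ATRA and 0.758 to 0.813 with 9cRA, against 1.23 to 2.2 in the day 6 control, with day 0 at 0.718 to 0.882. Those of 6 skeletal muscle genes were 19.4 to 19.8 with ATRA and 21 to 22.6 with 9cRA, against 41.9 to 46.8 in the day 6 control, with day 0 at 70.2 to 74.9. DES, the desmin gene, made up most of that sum and was the only 1 of its 4 tested genes called, PAX7 and MYF5, which mark muscle precursors, were well above background on 1 and 0 of 12 arrays, and MYOD1 was well above background on all. Those of 4 epithelial genes were 0.41 to 0.538 with ATRA and 0.479 to 0.51 with 9cRA, against 0.352 to 0.43 in the day 6 control, with day 0 at 0.239 to 0.421. The part of other cell types in the transporter results was not tested.

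Of the 55 transporter genes, 35 passed the filter, which asks that 1 group or more have all 3 arrays well above background, and 28 were well above background on all 12 arrays. A gene such as SLC7A14 or SLC6A6 passed only through groups in which it was high. The tested genes were 4 of 6 in SLC1, 1 of 2 in SLC3, 10 of 18 in SLC6, 8 of 13 in SLC7, 1 of 3 in SLC36, 8 of 10 in SLC38 and 3 of 3 in SLC43. Where a gene had several probes, the brightest over all arrays is its representative. Each probe is an oligonucleotide of 60 bases. The first 30 bases are shown for the 4 genes with the largest ATRA differences within a slide, with the probe's position on the UMD3.1 genome, because each reads 1 short stretch of the transcript and the difference is that of this stretch.
SLC7A14 (chr1:97762795-97762854): agactcactgtaagacagtcagacccaata
SLC6A2 (chr18:24004109-24004168): gcagagttctctgtctgtaaaagcaagggt
SLC1A1 (chr8:40178437-40178496): gttctgtattgaccacctgcacctgaaatc
SLC43A3 (chr15:81978477-81978536): gggaggttttcttcaagaagggagatgatt
The SLC7A14 and SLC6A2 probes lie on the plus strand and the SLC1A1 and SLC43A3 probes on the minus strand, and the coding or untranslated position of a probe is not given in the files.

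Over 6 days in adipogenic medium, transporters of glutamate and noradrenaline rose, and carriers of small neutral amino acids moved in both directions. In the day 6 control, 16 of the 35 tested transporter genes were called higher than at day 0 and 6 lower, where 31.0% of all genes tested were called higher and 31.3% lower (62.3% in either direction). Their median difference was 0.35, that of all genes tested 0.00. The largest increases were those of SLC1A1, SLC6A2 and SLC1A3, and the largest decrease was that of SLC38A5. By family, higher and lower calls were 3 and 1 of 4 in SLC1, 4 and 1 of 10 in SLC6, 3 and 0 of 8 in SLC7, 4 and 4 of 8 in SLC38, and 2 and 0 of 3 in SLC43. The lower call in SLC6 was that of LOC515755, counted here because its probes are named SLC6A9 on the array. The single tested genes of SLC3 and SLC36 were not called. With arrays scaled to their median, the counts were 14 higher and 9 lower. All genes called moved likewise, to 4730 higher and 6182 lower, from 5465 and 5522 in the main fit.

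With ATRA, a lysosomal member of the SLC7 family, SLC7A14, stood far above its level in the day 6 control, SLC1A1 was also higher than there, and SLC6A2 was lower. Against the day 6 control, 8 transporter genes were called higher with ATRA and 13 lower, where 23.7% of all genes tested were called higher and 22.4% lower (46.1% in either direction). The median was -0.08 for the transporters and 0.05 for all genes. SLC38 had 1 higher and 5 lower of 8, SLC1 1 and 2 of 4, SLC6 2 and 2 of 10, SLC7 3 and 1 of 8, and SLC43 1 and 2 of 3. The lower SLC6 genes, here and with 9cRA, were SLC6A2 and LOC515755. SLC3A2 was lower and the single tested SLC36 gene was not called.

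With 9cRA, SLC7A14, SLC6A2 and SLC1A1 again had the largest differences. Against the day 6 control, 12 transporter genes were called higher and 13 lower, where 24.8% of all genes tested were called higher and 21.8% lower (46.6% in either direction). The median was -0.08 for the transporters and 0.06 for all genes. SLC38 had 1 higher and 4 lower, SLC1 1 and 2, SLC6 5 and 2, SLC7 4 and 2, and SLC43 1 and 2, and SLC3A2 was again lower. These counts depend on the slide, since 9cRA and the day 6 control shared none. With slide as a block, 5 transporter genes were called higher and 8 lower. All genes called also fell, to 1818 higher and 2260 lower, from 4372 and 3837 in the main fit. Without 9cRA array 1, 9cRA array 2 or day 6 control array 1 in turn, 7 transporter genes were called higher. Of all genes, 3863, 3398 and 4029 were called higher in these fits. ATRA and 9cRA were set against the same 3 control arrays.

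**Figure D1:**
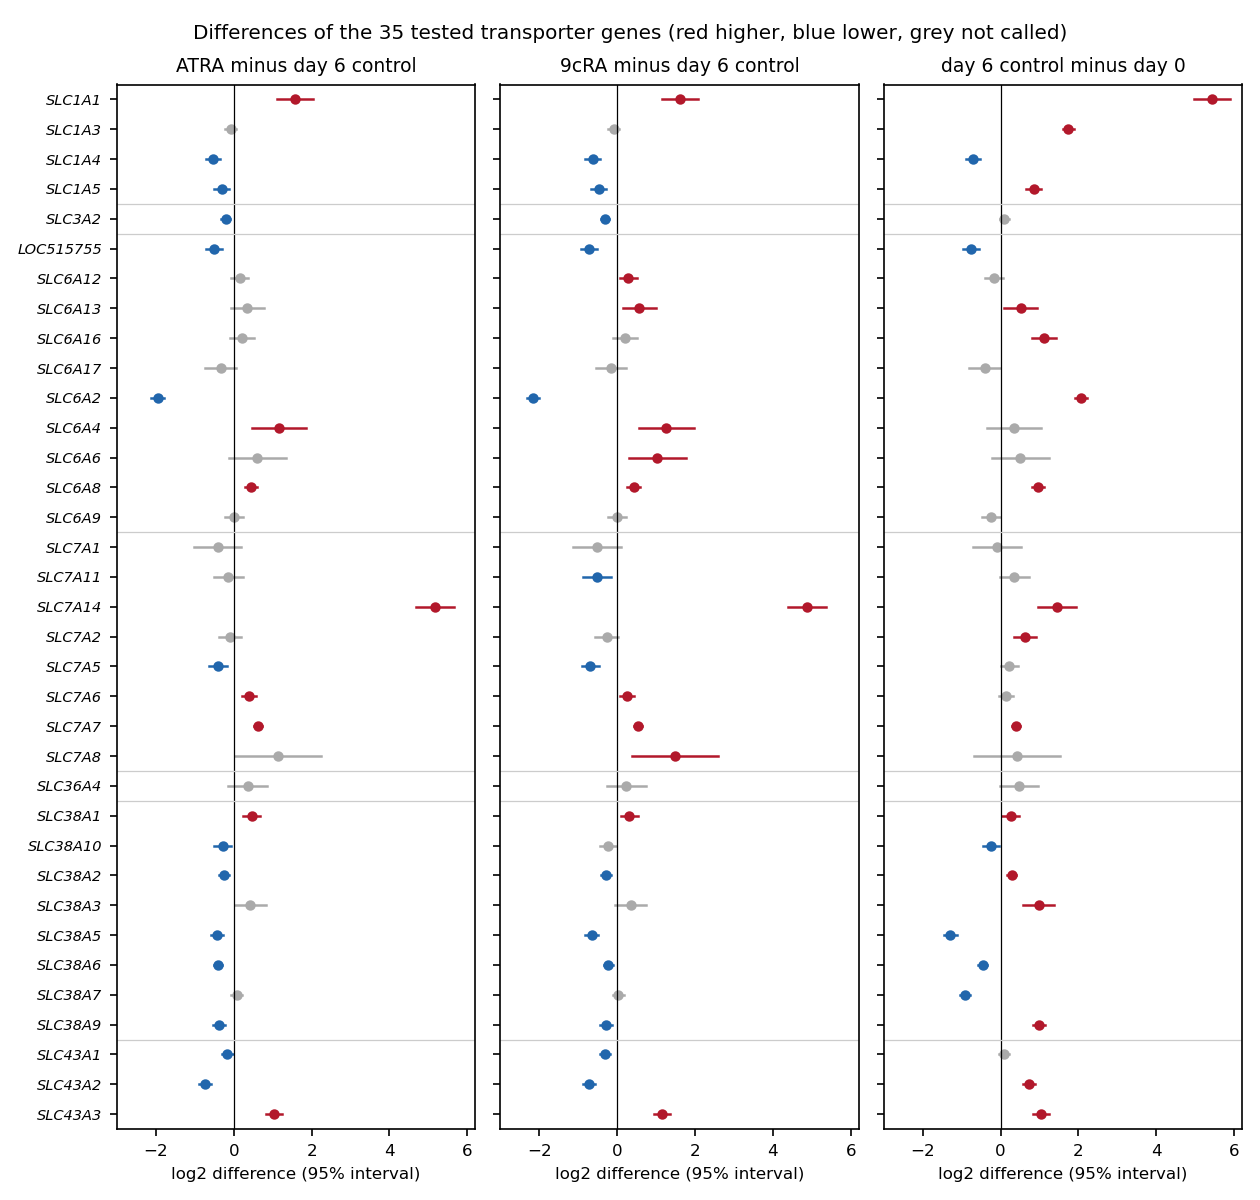
Log2 differences of the 35 tested transporter genes, grouped by family from SLC1 at the top to SLC43 at the bottom, for ATRA minus day 6 control, 9cRA minus day 6 control and day 6 control minus day 0. Points are limma estimates and bars their 95% intervals, red where called higher, blue where called lower and grey where not called; SLC7A14 stands at 5.17 with ATRA and 4.89 with 9cRA, and SLC1A1 at 5.43 over culture, a fitted value with day 0 at background, for which the bound is at least 17.8-fold.

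Glutamate transporters showed the largest increase over culture. SLC1A1, a neuronal and epithelial transporter of glutamate and cysteine (EAAT3), had -0.30, -0.35 and -0.48 with ATRA and -0.31, -0.37 and -0.33 with 9cRA, against -2.01, -1.94 and -1.90 in the day 6 control. At day 0 it had -7.64, -6.75 and -7.74 and was not well above background on any of the 3 arrays. The 4 groups did not overlap except ATRA with 9cRA. The day 6 control was at least 17.8-fold higher than day 0 (adjusted p = 6.7e-09). This bound sets the mean of the brighter group against, per array, the higher of the gene's own signal and the lowest signal well above background. Measured means were -1.95 ± 0.06 in the day 6 control and -7.38 ± 0.54 at day 0 (SD, n = 3). Against the day 6 control the difference was 1.57 ± 0.21 (SE, adjusted p = 1.3e-04) with ATRA and 1.61 ± 0.21 (SE, adjusted p = 1.2e-04) with 9cRA. The second SLC1A1 probe did not pass the filter, and its means were -5.19 with ATRA and -5.37 with 9cRA, against -7.38 in the day 6 control, with day 0 at -7.55. It was well above background on 2 of 3 arrays with each retinoid and on 0 of 3 in the day 6 control and at day 0. The increase over culture therefore rests on the brighter probe alone.

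SLC1A3, the glial glutamate and aspartate transporter (GLAST), had -0.77, -0.91 and -0.86 with ATRA, -0.76, -0.85 and -0.94 with 9cRA and -0.82, -0.80 and -0.68 in the day 6 control, against -2.44, -2.54 and -2.52 at day 0. The 3 groups of day 6 overlapped and all their arrays lay above day 0. It rose by 1.73 ± 0.06 (SE, adjusted p = 4.8e-09) in the day 6 control over day 0, and its second probe by 1.87. Retinoid differences from the day 6 control were -0.08 (adjusted p = 0.33) with ATRA, with a 95% interval of -0.22 to 0.06, and -0.08 (adjusted p = 0.29) with 9cRA, with an interval of -0.23 to 0.06.

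Of the neutral exchangers of SLC1, SLC1A5 rose over culture and SLC1A4 fell, and each was lower with retinoids. SLC1A5 (ASCT2), the exchanger that brings glutamine into many dividing cells, had 5.10, 4.98 and 4.93 with ATRA and 4.95, 4.77 and 4.78 with 9cRA, against 5.12, 5.37 and 5.44 in the day 6 control, and day 0 had 4.42, 4.45 and 4.53. All day 6 arrays, with or without a retinoid, lay above those of day 0, and day 6 control array 1 was the lowest of its group. It rose by 0.84 ± 0.09 (SE, adjusted p = 1.3e-05) in the day 6 control over day 0. Against the day 6 control it was lower by 0.31 ± 0.09 with ATRA (SE, adjusted p = 0.016) and by 0.48 ± 0.09 with 9cRA (SE, adjusted p = 0.0014). The ATRA call was lost without ATRA array 3, day 6 control array 2 or day 6 control array 3 in turn (adjusted p up to 0.058) and with quantile normalization. SLC1A4 (ASCT1), which exchanges alanine, serine and cysteine, was lower in the day 6 control than at day 0, by -0.70 (adjusted p = 3.0e-05), and lower again with ATRA, by -0.53 (adjusted p = 3.8e-04), and 9cRA, by -0.63 (adjusted p = 1.2e-04). Its 3 probes were called lower in each of these comparisons.

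**Figure D2:**
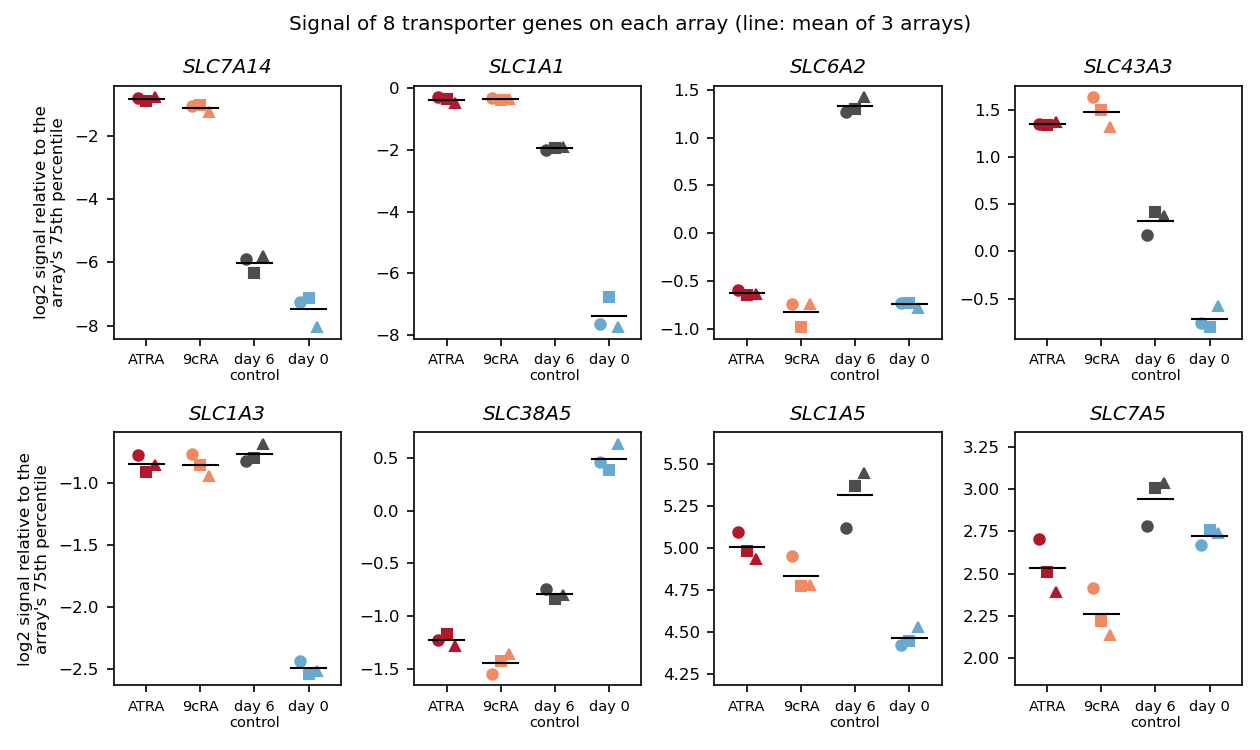
Log2 signal relative to the array's 75th percentile of 8 transporter genes on each array of the ATRA, 9cRA, day 6 control and day 0 groups (circle, square and triangle for arrays 1, 2 and 3, lines for means of 3 arrays; the axes differ between genes). SLC7A14 and SLC43A3 are highest on the retinoid arrays, SLC6A2 is highest on the day 6 control arrays, and SLC1A3 is low at day 0 alone.

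In SLC7, the gene with the largest response to both retinoids was SLC7A14. It belongs to the branch of cationic amino acid carriers, is known as a lysosomal protein of the retina and brain, and its substrate is not settled. Its single probe had -0.82, -0.92 and -0.80 with ATRA and -1.08, -1.05 and -1.26 with 9cRA, against -5.89, -6.34 and -5.81 in the day 6 control, and day 0 had -7.24, -7.11 and -8.04. Every retinoid array lay far above every other array, and the signal was well above background on 1 of 3 day 6 control arrays and on 0 of 3 day 0 arrays. The difference was 5.17 ± 0.22 (SE, adjusted p = 3.2e-08) for ATRA and 4.89 ± 0.22 (SE, adjusted p = 5.1e-08) for 9cRA against the day 6 control. With slide as a block these were 5.20 (adjusted p = 4.1e-06) and 4.88 (adjusted p = 1.6e-04). Because most day 6 control arrays lay at background, the measured size depends on values near it. In the day 6 control the fitted difference from day 0 was 1.45 (adjusted p = 2.0e-04), with signals mostly at background in both groups, which leaves a bound of at least 1.06-fold.

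The heavy chain SLC3A2 (CD98hc) and its leucine-carrying partner SLC7A5 (LAT1) were both lower with retinoids by small amounts. SLC3A2 had 2.91, 2.79 and 2.80 with ATRA and 2.75, 2.73 and 2.73 with 9cRA, against 3.00, 3.1 and 3.04 in the day 6 control, and day 0 had 2.89, 2.97 and 2.99. SLC7A5 had 2.70, 2.51 and 2.39 with ATRA and 2.42, 2.22 and 2.14 with 9cRA, against 2.78, 3.01 and 3.04 in the day 6 control, and day 0 had 2.67, 2.76 and 2.74. For both genes every retinoid array lay below every day 6 control array. SLC3A2 differed from the day 6 control by -0.21 ± 0.05 (SE, adjusted p = 0.0064) with ATRA and -0.31 ± 0.05 (SE, adjusted p = 5.9e-04) with 9cRA, and with slide as a block the 9cRA difference of -0.29 was not called (adjusted p = 0.058). SLC7A5 differed by -0.41 ± 0.10 (SE, adjusted p = 0.0072) with ATRA and -0.69 ± 0.10 (SE, adjusted p = 3.0e-04) with 9cRA. All 3 SLC7A5 probes and both SLC3A2 probes were lower with each retinoid, and the dimmest SLC7A5 probe was not called. Day 6 control minus day 0 was 0.10 (adjusted p = 0.12) for SLC3A2 and 0.22 (adjusted p = 0.078) for SLC7A5, neither called. Without day 6 control array 1 the SLC7A5 difference was 0.30 (adjusted p = 0.025), and quantile normalization also called both genes higher, while the other SLC7A5 probes had -0.09 and -0.24, not called.

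Among other light chains of SLC3A2, a pair was higher with both retinoids. SLC7A7 (y+LAT1) and SLC7A6 (y+LAT2), which export cationic amino acids in exchange for neutral ones, were higher with ATRA by 0.63 (adjusted p = 2.2e-06) and 0.38 (adjusted p = 0.0031), and with 9cRA by 0.54 (adjusted p = 7.6e-06) and 0.25 (adjusted p = 0.026). All 4 SLC7A6 probes, 2 of which overlap in sequence, were called higher with each retinoid. On its representative probe the 9cRA call of SLC7A6 was lost without 9cRA array 1, day 6 control array 1 or day 6 control array 3 in turn (adjusted p up to 0.08) and with slide as a block (adjusted p = 0.23). SLC7A7 was also higher in the day 6 control than at day 0, by 0.39 (adjusted p = 4.1e-05), where its second probe had -0.21 (adjusted p = 0.5).

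SLC7A11 (xCT), which exports glutamate and imports cystine for glutathione, had -4.16, -4.00 and -4.09 with ATRA and -4.21, -4.45 and -4.73 with 9cRA, against -4.24, -3.74 and -3.85 in the day 6 control, and day 0 had -4.15, -4.55 and -4.17. The arrays of day 6 control overlapped those of every other group. Differences from the day 6 control were -0.14 ± 0.17 (SE, adjusted p = 0.52) with ATRA and -0.52 ± 0.17 (SE, adjusted p = 0.027) with 9cRA. The 9cRA call was lost without 9cRA array 2 or 3 or day 6 control array 2 or 3 in turn (adjusted p up to 0.097) and with slide as a block (adjusted p = 0.14). Over culture the difference was 0.35 (adjusted p = 0.094), and without day 6 control array 1 it was 0.50 (adjusted p = 0.021).

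SLC7A8 (LAT2), a light chain for large and small neutral amino acids, varied widely between arrays of a group. It had -2.49, -2.21 and -1.06 with ATRA and -1.79, -1.51 and -1.36 with 9cRA, against -3.95, -2.57 and -2.62 in the day 6 control, and day 0 had -3.79, -2.58 and -4.00. All retinoid arrays lay above all day 6 control arrays, with ATRA array 3 apart from ATRA arrays 1 and 2, which share a slide. The 9cRA difference of 1.49 ± 0.50 (SE, adjusted p = 0.031) passed the threshold and the ATRA difference of 1.13 ± 0.50 (SE, adjusted p = 0.088) did not. The 9cRA value turned to -0.24 (adjusted p = 0.83) with slide as a block, and without day 6 control array 1 or any one 9cRA array the adjusted p ranged up to 0.11. Among the cationic carriers, SLC7A2 (CAT2) rose by 0.63 (adjusted p = 0.0019) in the day 6 control over day 0, 0.52 (adjusted p = 0.055) with slide as a block, and SLC7A1 (CAT1) lay near background and was not called, its ATRA and 9cRA differences with slide as a block being -0.74 (adjusted p = 0.022) and -1.57 (adjusted p = 0.0087).

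Among the SLC6 carriers of neurotransmitters, SLC6A2 was lower with both retinoids and SLC6A4 higher. SLC6A2, the noradrenaline transporter of sympathetic nerve endings, had -0.60, -0.65 and -0.64 with ATRA and -0.74, -0.98 and -0.75 with 9cRA, against 1.27, 1.30 and 1.42 in the day 6 control, and day 0 had -0.73, -0.73 and -0.78. The day 6 control arrays stood alone above the others, and the arrays of ATRA and 9cRA lay close to those of day 0. It rose by 2.08 ± 0.07 (SE, adjusted p = 2.8e-09) in the day 6 control over day 0, and differed from the day 6 control by -1.96 ± 0.07 (SE, adjusted p = 1.0e-08) with ATRA and -2.15 ± 0.07 (SE, adjusted p = 6.1e-09) with 9cRA. The second, dimmer probe was well above background on 0 of 3 arrays with ATRA, with 9cRA and at day 0, and on 3 of 3 in the day 6 control, so it gives no size. TUBB3, a tubulin of neurons, was higher in the day 6 control than at day 0, by 0.88 ± 0.08 (SE, adjusted p = 3.3e-06), and lower with ATRA, by -1.17 ± 0.08 (SE, adjusted p = 7.7e-07). SNAP25, a protein of synaptic vesicle fusion, was higher with ATRA, by 0.94 ± 0.11 (SE, adjusted p = 4.4e-05). Of the 4 tested genes of neurons and glia, 1 was called higher over culture and 0 lower, where 31.0% and 31.3% of all genes were. With ATRA 2 were called higher and 1 lower, where 23.7% and 22.4% of all genes were.

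SLC6A4, the serotonin transporter, had -2.70, -2.73 and -2.80 with ATRA and -2.73, -2.56 and -2.66 with 9cRA, against -4.83, -3.54 and -3.37 in the day 6 control, and day 0 had -3.96, -4.50 and -4.30. Every retinoid array lay above every other array, and day 6 control array 1 was more than 1 log2 unit below the other day 6 control arrays. Differences from the day 6 control were 1.17 ± 0.31 (SE, adjusted p = 0.011) with ATRA and 1.27 ± 0.31 (SE, adjusted p = 0.0076) with 9cRA. Without day 6 control array 1 they were 0.72 (adjusted p = 0.0022) and 0.81 (adjusted p = 0.0011). Day 6 control minus day 0 was 0.34 (adjusted p = 0.37). It turned to -0.57 (adjusted p = 0.025) with slide as a block, which leaves only that array for the day 6 control, and to 0.80 (adjusted p = 6.2e-04) without it, so no direction over culture is given. The second SLC6A4 probe was well above background on 1 of 12 arrays, at day 0.

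SLC6A8, the creatine transporter, rose by 0.97 (adjusted p = 8.4e-07) in the day 6 control over day 0 and was higher again with ATRA, by 0.44 (adjusted p = 5.1e-04), and with 9cRA, by 0.42 (adjusted p = 7.2e-04), or adjusted p = 0.051 with slide as a block. SLC6A6, the taurine transporter, had -5.78, -5.77 and -4.59 with ATRA and -4.94, -4.99 and -4.94 with 9cRA, against -5.57, -5.95 and -6.44 in the day 6 control, and day 0 had -6.63, -6.06 and -6.76. It was well above background on 1 of 3 ATRA arrays, on 3 of 3 9cRA arrays and on 0 of 3 arrays of the day 6 control and of day 0. With 9cRA it was at least 1.68-fold higher than in the day 6 control (adjusted p = 0.026), with means of -4.95 ± 0.03 in 9cRA and -5.99 ± 0.44 in the day 6 control (SD, n = 3). The call did not hold in the fit with slide as a block (difference 0.05, adjusted p = 0.93), with normexp background correction, and without any one array of either group except day 6 control array 1.

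SLC6A12 and SLC6A13, carriers of betaine and GABA, were called higher with 9cRA by 0.28 (adjusted p = 0.038) and 0.57 (adjusted p = 0.031). Neither call held with slide as a block, where SLC6A12 had 0.09 (adjusted p = 0.76) and SLC6A13 turned to -0.13 (adjusted p = 0.49), or without day 6 control array 1 (adjusted p = 0.12 and 0.068). SLC6A13 was also called higher over culture, by 0.51 (adjusted p = 0.037), with array values that overlapped day 0. This call was lost without any one array except day 6 control array 1, without which the difference was 0.75 (adjusted p = 7.3e-04). With slide as a block, which leaves only that array for the day 6 control, the difference was 0.03. SLC6A16, whose substrate is not known, differed by 1.12 (adjusted p = 4.7e-05) between the day 6 control and day 0, with 2 of 3 day 6 control arrays and 1 of 3 day 0 arrays well above background. SLC6A17, a vesicular carrier of neutral amino acids, was not called on its representative probe, though median scaling and quantile normalization called it lower over culture. Its second probe was called lower over culture, by -0.56 (adjusted p = 0.042), with ATRA, by -1.11 (adjusted p = 0.0018), and with 9cRA, by -0.77 (adjusted p = 0.015). On that probe 0 of 3 arrays with ATRA and 0 of 3 with 9cRA were well above background, against 2 of 3 in the day 6 control.

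The glycine transporter SLC6A9 (GLYT1) could be read only with a reservation. Of the 7 probes named SLC6A9 in the files, 4 lie on chromosome 3 and 3 carry the RefSeq accession of LOC515755, a gene on chromosome 13. The last 26 bases of the brightest SLC6A9 probe line up with the first 26 bases of the brightest LOC515755 probe, and they are shown because they differ at 2 positions only (capitals), given as C6T and C10T with positions counted from 1 at the 5′ end of the lines shown.
SLC6A9: ccatcCgcgCaccactaggattttaa
LOC515755: ccatcTgcgTaccactaggattttaa
The next SLC6A9 probe, A_73_P038681, shares an identical stretch of 50 of its 60 bases with that LOC515755 probe, so the signals of the genes cannot be told apart by these probes. The probe A_73_103477, representative for SLC6A9, had means of 2.45 with ATRA and 2.44 with 9cRA, against 2.45 in the day 6 control, with day 0 at 2.70, and was not called in any comparison. With slide as a block, which leaves only day 6 control array 1 for the day 6 control, its difference over culture was -0.50. Without that array it was -0.12 (adjusted p = 0.16), and median scaling called it lower, by -0.32 (adjusted p = 0.018). A_73_P038681 had 0.69 with ATRA and 0.53 with 9cRA, against 1.17 in the day 6 control, with day 0 at 1.84. A_73_P031291, the LOC515755 probe, had 0.22 with ATRA and 0.01 with 9cRA, against 0.73 in the day 6 control, with day 0 at 1.50. The remaining SLC6A9 probes lie elsewhere in the gene. A_73_P093561 was called lower over culture, by -1.33 (adjusted p = 0.0013), and with ATRA, by -0.91 (adjusted p = 0.018), with 0 of 3 ATRA arrays well above background, and A_73_P108469 had -0.78 (adjusted p = 0.14) over culture. The LOC515755 probe A_73_P031291 was called lower over culture, by -0.77 (adjusted p = 4.2e-05), with ATRA, by -0.51 (adjusted p = 0.0012), and with 9cRA, by -0.72 (adjusted p = 1.3e-04). A dimmer LOC515755 probe, A_73_P508073, was also called lower over culture, by -0.95 (adjusted p = 1.0e-06). With ATRA it had -0.29 (adjusted p = 0.0076) and with 9cRA -0.48 (adjusted p = 3.0e-04), both called.

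**Figure D3:**
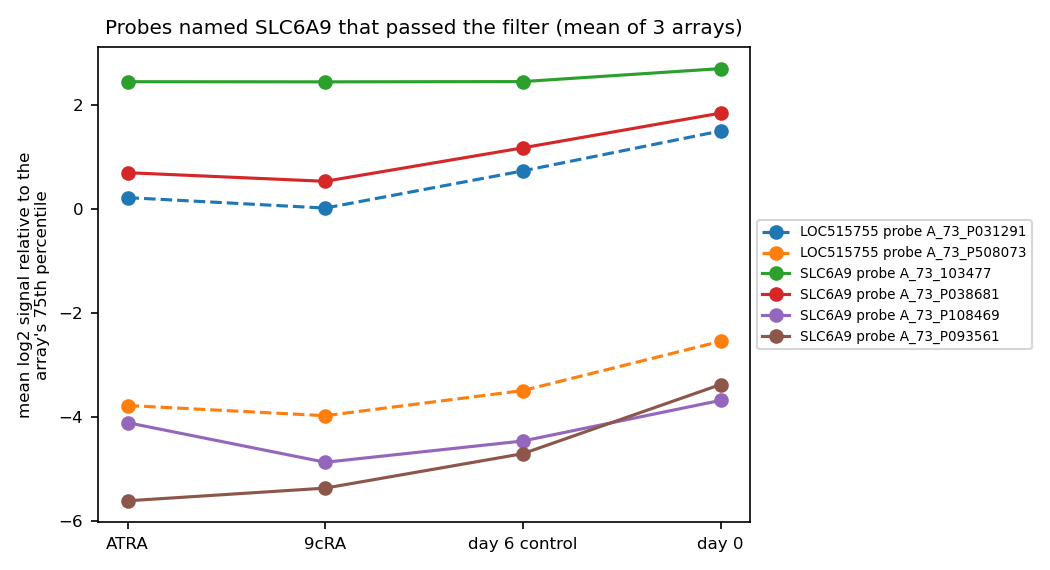
Mean log2 signal relative to the array's 75th percentile (3 arrays) of the 6 probes named SLC6A9 that passed the filter, by group from ATRA to day 0, with solid lines for SLC6A9 on chromosome 3 and broken lines for LOC515755 on chromosome 13. The brightest SLC6A9 probe stays between 2.44 and 2.70, while the second SLC6A9 probe and the LOC515755 probe that share a stretch run alongside each other.

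Of the 8 tested SLC38 carriers, 5 were called lower with ATRA, where 22.4% of all genes were, with SLC38A10 among the 5 although its probes disagree. SLC38A2 (SNAT2), the carrier of alanine and glutamine that cells raise when amino acids are scarce, had 4.08, 3.97 and 3.96 with ATRA and 3.91, 3.97 and 4.01 with 9cRA, against 4.33, 4.20 and 4.22 in the day 6 control, and day 0 had 3.93, 4.02 and 3.96. The day 6 control arrays lay above all others by a narrow margin. It rose by 0.28 ± 0.05 (SE, adjusted p = 0.0011) in the day 6 control over day 0 and differed from the day 6 control by -0.25 ± 0.05 (SE, adjusted p = 0.0038) with ATRA and -0.29 ± 0.05 (SE, adjusted p = 0.0017) with 9cRA, the 9cRA value being -0.18 (adjusted p = 0.21) with slide as a block. All 5 probes were lower with each retinoid, and 4 of 5 were called higher over culture. With ATRA the next-to-dimmest probe had only -0.02 (adjusted p = 0.86). With 9cRA the dimmer probes had -0.09, -0.18 and -0.22 (adjusted p = 0.29, 0.14 and 0.22) and were not called.

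SLC38A5 (SNAT5), which carries glutamine, asparagine and histidine, had -1.22, -1.17 and -1.29 with ATRA and -1.55, -1.43 and -1.36 with 9cRA, against -0.74, -0.84 and -0.80 in the day 6 control, and day 0 had 0.47, 0.39 and 0.64. Arrays of the retinoid groups, the day 6 control and day 0 formed separate ranges, lowest with retinoids and highest at day 0. In the day 6 control it differed from day 0 by -1.29 ± 0.07 (SE, adjusted p = 1.2e-07), and from the day 6 control by -0.43 ± 0.07 (SE, adjusted p = 7.2e-04) with ATRA and -0.65 ± 0.07 (SE, adjusted p = 4.2e-05) with 9cRA. Its 3 probes were called lower in each of these comparisons.

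Lysosomal members moved in opposite directions over culture. SLC38A9, the lysosomal carrier that reports arginine to mTORC1, was higher in the day 6 control than at day 0, by 0.99 (adjusted p = 6.8e-07), and lower with ATRA, by -0.39 (adjusted p = 0.0012), and 9cRA, by -0.29 (adjusted p = 0.0065), or -0.19 (adjusted p = 0.21) with slide as a block. Its 3 probes were called in the same direction in each of these comparisons. SLC38A7, a lysosomal glutamine exporter, was lower in the day 6 control than at day 0, by -0.91 (adjusted p = 4.3e-07), on all 3 probes. With ATRA its representative probe had 0.07 (adjusted p = 0.34), while the 2 dimmer probes were called higher, by 0.40 (adjusted p = 0.018) and 0.29 (adjusted p = 0.038). SLC38A6, a little characterised member, was lower over culture, by -0.46 (adjusted p = 2.2e-05), and lower with ATRA, by -0.41 (adjusted p = 9.5e-05), and 9cRA, by -0.23 (adjusted p = 0.0045), or -0.17 (adjusted p = 0.2) with slide as a block.

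SLC38A1 (SNAT1), a glutamine carrier, was called higher with ATRA, by 0.46 (adjusted p = 0.0032), and with 9cRA, by 0.31 (adjusted p = 0.024), the 9cRA call being lost with slide as a block (adjusted p = 0.67) and without 9cRA array 1 or 2 or day 6 control array 1 or 3 in turn. Its call over culture, 0.26 (adjusted p = 0.038), was lost with slide as a block, with normexp, median scaling and quantile normalization, and without 4 of the 6 arrays in turn. SLC38A3 (SNAT3), a glutamine carrier of liver and astrocytes, differed by 0.97 (adjusted p = 0.001) between the day 6 control and day 0, where day 6 control array 1 was left out as an outlier spot and 2 arrays gave the mean. For SLC38A10 the representative probe was called lower over culture, by -0.25 (adjusted p = 0.04), and with ATRA, by -0.29 (adjusted p = 0.03), but its other probes had the opposite sign over culture, up to 0.77 (adjusted p = 0.0017), and both calls were lost with slide as a block, so no direction is given.

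SLC43A3 had the largest differences of the 3 SLC43 genes. It is grouped with the large neutral amino acid facilitators by sequence and is known as a carrier of purine nucleobases. Its signals were 1.35, 1.33 and 1.37 with ATRA and 1.63, 1.49 and 1.31 with 9cRA, against 0.18, 0.41 and 0.37 in the day 6 control, and day 0 had -0.75, -0.80 and -0.58. The retinoid arrays, the day 6 control arrays and the day 0 arrays formed 3 separate ranges. It rose by 1.03 ± 0.09 (SE, adjusted p = 4.0e-06) in the day 6 control over day 0, and differed from the day 6 control by 1.03 ± 0.09 (SE, adjusted p = 7.9e-06) with ATRA and 1.16 ± 0.09 (SE, adjusted p = 3.6e-06) with 9cRA. SLC43A2 (LAT4), a facilitator of branched-chain amino acids, rose by 0.72 (adjusted p = 5.5e-06) over culture and was lower with ATRA, by -0.74 (adjusted p = 8.8e-06), and 9cRA, by -0.72 (adjusted p = 1.1e-05). SLC43A1 (LAT3), with similar substrates, was lower with ATRA, by -0.16 (adjusted p = 0.046), and 9cRA, by -0.31 (adjusted p = 0.0019). The ATRA call of SLC43A1 was lost without any one array of either group (adjusted p up to 0.11), and with slide as a block neither passed (adjusted p = 0.13 with ATRA and 0.081 with 9cRA). SLC36A4, a carrier of proline and tryptophan, was the only tested SLC36 gene and was not called in any comparison.

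ATRA and 9cRA were given at the same dose of 1 µM for the same 6 days and could be compared directly. Of the 35 transporter genes tested, 0 were called between them by limma, where 0.119% of all genes were called. An unadjusted p under 0.05 was found for 6 of these transporter genes, and for 1850 of all 17622 genes tested. The differences, ATRA minus 9cRA, ranged from -0.42 for SLC6A6 to 0.38 for SLC7A11, and the lowest adjusted p was 0.26. The p-values are adjusted over all genes of this 1 pair of compounds. The 95% interval lay within a 2-fold difference in either direction for 33 genes and reached beyond it for SLC6A6 (-1.16 to 0.31) and SLC7A8 (-1.47 to 0.74). For SLC7A14 the difference was 0.28 with an interval of -0.21 to 0.77, for SLC1A1 -0.04 with an interval of -0.50 to 0.42, and for SLC6A2 0.19 with an interval of 0.04 to 0.35. All 9cRA arrays and 1 of 3 ATRA arrays shared a slide. With slide as a block, 0 transporter genes were called either, and the differences ranged from -0.19 for SLC38A6 to 0.83 for SLC7A1 (adjusted p = 0.24), with SLC6A6 turned to 0.37 and SLC7A8 to 0.49. A p that misses the threshold does not show that the isomers act alike.

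**Figure D4:**
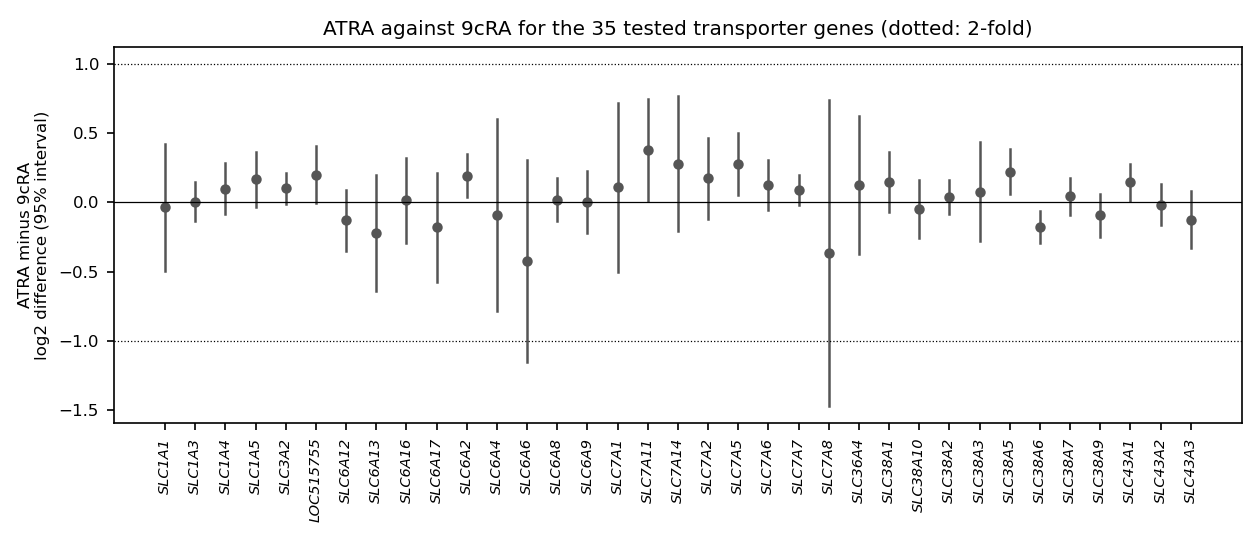
ATRA minus 9cRA log2 difference of the 35 tested transporter genes, ordered by family, with 95% intervals from limma and dotted lines at a 2-fold difference in each direction. All points lie between -0.42 and 0.38, and the intervals of SLC6A6 and SLC7A8 alone cross a dotted line.

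Genes outside the transporter families were read from lists of pathways that use or sense amino acids. Of all genes tested, 23.7% were called higher and 22.4% lower with ATRA, 24.8% and 21.8% with 9cRA, and 31.0% and 31.3% over culture. Targets of ATF4, the transcription factor of the amino acid response, were mostly lower with retinoids. Of 21 tested, 1 was called higher and 19 lower with ATRA (median -0.67), and 1 higher and 18 lower with 9cRA (median -0.65). PSAT1 and PHGDH, enzymes of serine synthesis, differed from the day 6 control by -1.59 ± 0.07 (SE, adjusted p = 6.6e-08) and -1.05 ± 0.06 (SE, adjusted p = 2.9e-07) with ATRA. ASNS, the asparagine synthetase, differed by -0.98 ± 0.05 (SE, adjusted p = 2.4e-07) and TRIB3, a pseudokinase of the stress response, by -1.09 ± 0.08 (SE, adjusted p = 1.1e-06). Over culture 6 of the 21 were called higher and 10 lower (median -0.14), with the mTORC1 inhibitor DDIT4 at 3.14 ± 0.05 (SE, adjusted p = 2.8e-11) and TRIB3 at -1.38 ± 0.08 (SE, adjusted p = 9.2e-08).

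Enzymes that make or break down the transported amino acids, 8 of which are also in the ATF4 list, were called higher for 5 and lower for 23 of 39 with ATRA (median -0.31) and for 5 and 22 with 9cRA (median -0.27), where 23.7% and 22.4% of all genes were called with ATRA. Over culture 16 were higher and 14 lower (median -0.13), where 31.0% and 31.3% of all genes were. GLUL, which makes glutamine from glutamate, rose by 2.17 ± 0.04 (SE, adjusted p = 7.4e-11) in the day 6 control over day 0, and differed from the day 6 control by -0.88 ± 0.04 (SE, adjusted p = 7.3e-08) with ATRA. CDO1, which turns cysteine toward taurine, rose by 2.60 ± 0.07 (SE, adjusted p = 3.8e-10) over culture. PRODH, which begins proline breakdown, differed by -1.40 ± 0.07 (SE, adjusted p = 1.2e-07) with ATRA.

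Cytosolic aminoacyl-tRNA synthetases, which load amino acids onto tRNA, were called higher for 2 and lower for 13 of 20 over culture (median -0.27), for 1 and 8 with ATRA (median -0.08) and for 2 and 7 with 9cRA (median -0.09). WARS1, the tryptophan enzyme, which is also induced by interferon, was the 1 called higher with ATRA, at 1.32 ± 0.05 (SE, adjusted p = 1.2e-08), and differed by -2.23 ± 0.05 (SE, adjusted p = 1.5e-10) over culture. Genes by which mTORC1 senses amino acids were called higher for 2 and lower for 14 of 25 over culture (median -0.37), for 2 and 6 with ATRA (median -0.13) and for 3 and 7 with 9cRA (median -0.05). SESN1, the leucine-sensor relative sestrin 1, rose by 1.55 ± 0.05 (SE, adjusted p = 1.4e-09) over culture and differed from the day 6 control by -0.95 ± 0.05 (SE, adjusted p = 9.2e-08) with ATRA. Amino acid and peptide carriers of other families were called higher for 3 and lower for 7 of 14 over culture (median -0.12), for 2 and 4 with ATRA (median 0.08) and for 3 and 5 with 9cRA (median 0.00). In either direction 62.3% of all genes were called over culture, 46.1% with ATRA and 46.6% with 9cRA. In each of these lists 0 genes were called by limma between ATRA and 9cRA.

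The other 20 transporter genes did not pass the filter. SLC1A6, SLC6A7, SLC6A15, SLC6A18, SLC6A20, SLC7A3, SLC7A9, SLC7A10 and SLC7A13 were not well above background on any array with any probe, and SLC6A11 and SLC7A4 reached that level on 1 ATRA array with their second probe. On its brightest probe SLC36A2, a proton-coupled carrier of glycine and proline, was well above background on 2 of 3 arrays with ATRA, 0 with 9cRA, 2 in the day 6 control and 2 at day 0. SLC38A4 was well above background on 2 of 3 arrays with ATRA and, with its second probe, on 1 of the day 6 control, and SLC6A14 on 2 of 3 arrays of the day 6 control alone. SLC1A7, SLC3A1, SLC6A5, SLC36A3 and SLC38A11 reached that level on at most 1 array of a group.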

How the data were processed

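RNA from 4 groups of bovine intramuscular preadipocytes was hybridised to 12 Agilent arrays with 1 colour (Cy3), 3 per group. The input was 100 ng of total RNA, copied from a poly-dT primer, per the labels' protocols. Per the file headers, the intensity of each spot was extracted with Feature Extraction 10.7.3.1 and background-subtracted, with no scaling between arrays. The authors also deposited log2 values, 1 per probe and group, for 31205 probes. Set against the arrays these are group means of log2 signal minus the 75th percentile, centred on the probe's median over the arrays (median absolute differences 0.00255 to 0.00277). Their column medians were 0.01 (ATRA), 0.02 (9cRA), -0.01 (day 6 control) and 0.01 (day 0), and their differences served as an alternative.

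For this report the log2 of the processed signal was used, less the 75th percentile of its array. The 1417 control spots of an array and 191 outlier spots over all arrays were left out, spots of a probe were averaged, and the probe with the highest mean stood for its gene. Saturated spots numbered 0. Probes were named through the accessions in the files and a RefSeq table (ARS-UCD2.0), which served for names alone: 28557 of 43653 by accession, 5115 by current symbol and 138 by older symbol, with file names kept for 9843. Group means of 17622 genes were fitted in R 4.3.3 by lmFit and eBayes of limma 3.58.1, with two-sided tests. The fit was also run on simulated arrays without a slide effect, which cannot show how slides bear on the results. The number of arrays limits the precision.

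Transporter members, gene lists and rules were chosen with earlier results of these data known. Values on every array are given for members called with a difference of at least 1 (log2) and well above background on all 3 arrays of either group, and for SLC3A2, SLC7A5, SLC7A11, SLC1A5 and SLC38A2. Up to 4 genes of each other list are named, by adjusted p, and TUBB3, SNAP25 and further members were chosen after their values were seen. Alternatives were normexp, median scaling, quantile normalization, no filter or a stricter filter, all probes, the mean over probes, slide as a fixed or random block, only the 2 groups compared, and each array left out. Promoter and protein sequences were not analysed here. The values of 1 member are not reported here.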

Additional observations from a re-analysis of the deposited data

How the results depend on the processing

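Counts of transporter genes called stayed within 1.5 times of those given under every alternative except for 9cRA against the day 6 control. There 12 were higher and 13 lower, against 5 higher and 8 lower with slide as a fixed block and 6 higher with slide as a random block (consensus correlation 0.28); the 2 groups shared no slide. Leaving out 1 array gave 7 to 11 higher and 12 to 14 lower for 9cRA, 8 to 9 higher and 10 to 12 lower for ATRA, and 14 to 19 higher and 5 to 7 lower for the day 6 control over day 0. Between ATRA and 9cRA, 0 transporter genes were called under any alternative. Of 935 alternative values of 14 named genes, 895 kept their direction and side of the threshold, 29 were no longer called, 9 became called and 2 turned round, both with slide as a fixed block: SLC7A8 for 9cRA against the day 6 control (-0.24) and SLC6A4 for the day 6 control against day 0 (-0.57). The cause was not tested.

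All genes called between ATRA and 9cRA numbered 21, against 34 with normexp, 32 with quantile normalization, 4 with no filter, 40 with genes above background on all arrays, 33 with slide as a fixed block, 5 as a random block, 2 with only these groups, and 0 to 22 with 1 array left out. All genes called for 9cRA against the day 6 control numbered 8209, against 4078 with slide as a fixed block. With slide as a block, called transporter genes shared with the main fit in the same direction were 18 of 22 over culture, 19 of 21 with ATRA and 12 of 25 with 9cRA. The 18 include SLC38A3, for which day 6 control array 1 was left out, so its difference within the day 0 slide cannot be estimated. Signals near background limit SLC7A14, SLC6A6, SLC6A16, SLC6A17 and SLC7A1, and at day 0 also SLC1A1. No paired analysis was possible because the labels number no arrays across groups.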
